A study of Homo sapiens with 5 samples.

Results

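LYNX1 is a small membrane-anchored protein of the Ly6 family, a group of three-finger proteins related in fold to snake toxins. It binds nicotinic acetylcholine receptors in the nervous system and dampens their response to acetylcholine. An siRNA pairs with a messenger RNA and leads to its cleavage, and different siRNAs against a single gene share the intended target but not their other matches. The results below set the array of Miapaca cells given an siRNA against the LYNX1 open reading frame (ORF) directly against the array of Miapaca cells given an siRNA against the LYNX1 3′ untranslated region (3UTR). Of 20043 genes with a probe on the Illumina human BeadChip, 10703 were compared, namely those with a detection p under 0.01 on either of these 2 arrays.

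Miapaca and BXPC3 are established human lines of pancreatic ductal adenocarcinoma. Both Miapaca cultures received siRNA at 60 pM, as the labels write the unit, with 4 µl of lipofectamine RNAiMAX, 24 h after seeding, and cells were harvested for RNA 72 h later. Another Miapaca culture received a non-targeting control siRNA in the same way. BXPC3 cultures received the control or the ORF siRNA at 200 nM with 14 µl of Xtreme gene9, so line, dose and reagent cannot be told apart. No untransfected culture was analysed here. Each of the 5 groups held 1 array, so no value has a replicate error, no test was possible and no p-value of a difference is given. Differences were therefore counted at a fixed 2-fold, and with so few arrays precision is limited.

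The ORF and 3UTR arrays were alike in brightness. Their mean bead intensities were 355 and 343, a ratio of 1.03, and 16704 and 16622 probes were detected. The control array was 1.30 times as bright as the ORF array and 1.35 times as bright as the 3UTR array. Fitted background was 92.4 on both siRNA arrays, so an intensity near this value carries no signal. LYNX1 was not detected on either. Its probes read 88.9 and 89.7 with the ORF siRNA and 83.1 and 90.2 with the 3UTR siRNA, so the knockdown could not be checked and LYNX1 is not among the genes compared.

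The markers fit an epithelial cancer line only in part. Of 8 markers of pancreatic cancer epithelium, KRT8, KRT18, KRT19 and MUC1 were detected on both arrays and CLDN4 on the 3UTR array, while KRT7, EPCAM and CDH1 were not detected. The mesenchymal filament gene VIM read 19424 with the ORF and 16504 with the 3UTR siRNA. The other mesenchymal markers, CDH2 and ZEB1, were not detected, at 93.3 and 98.3 with the ORF siRNA against 89.3 and 89.7. The summed intensity of the epithelial markers was 10324 and 5832. Of 8 fibroblast markers COL1A2 was detected on both arrays, at 2413 and 1962, and COL3A1 on the 3UTR array, at 110. The endothelial marker CDH5 read 95.6, below detection, and 154. CD14 and CD68 were detected among 9 blood markers and PTPRC was not, and the 9 acinar and endocrine markers were all undetected. In bulk RNA, a smaller number of cells expressing a gene and less RNA per cell cannot be told apart, and the part of these markers in the differences below was not tested.

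At least 2-fold higher levels were found for 554 of 10609 genes (5.22%) with the ORF siRNA and for 526 (4.96%) with the 3UTR siRNA, after 94 genes with no valid bound were set aside, and together these were 1080 genes (10.2%). At 4-fold the counts were 33 and 40. The median log2 difference, ORF minus 3UTR throughout, was 0.02, and 95% of genes fell between −1.25 and 1.26. Of all genes, 51.3% stood higher with the ORF siRNA. Levels on the arrays correlated across genes at r = 0.96. Genes at the edge of the 2-fold limit stood at 1.003 and −1.0002 on the log2 scale just inside it and at 0.999 and −0.999 just outside. Among the genes past the limit, 119 and 109 were detected on the brighter array only. Their fold was taken against the higher of the undetected reading and the dimmer array's lowest detected signal. That signal is not the detection limit of each probe, so folds given as at least are approximate. Of the 10609 genes, 1473 were detected on 1 array only, and each could be counted only as higher on that array. The counts depended on how background was treated, and without background correction they were 157 and 150.

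**Figure D1:**
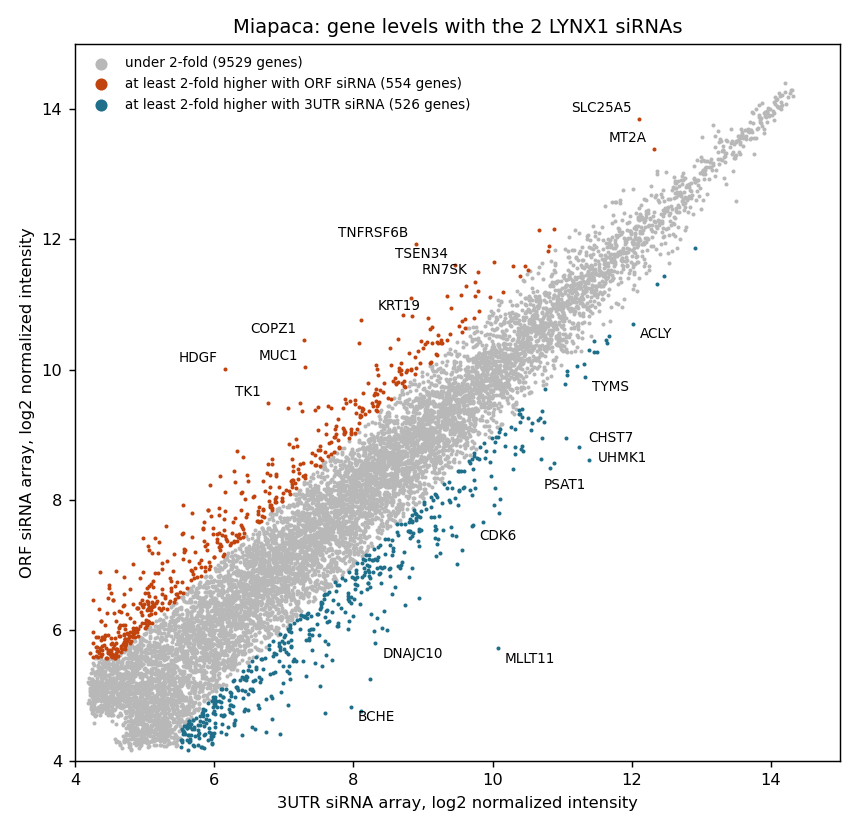
Normalized log2 intensity of each gene with the 3UTR siRNA (horizontal) and the ORF siRNA (vertical) in Miapaca, 1 array each. Genes at least 2-fold higher with the ORF siRNA (554, orange) or the 3UTR siRNA (526, blue) lie on either side of 9529 genes within 2-fold (grey), with most of the differences below a level of 10.

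Probes for different parts of a transcript give the only repeat measurement here, and they cover probe error but not the error between cultures or arrays. For 2227 genes with another probe detected on both arrays, the log2 differences of the brightest and the other probe correlated across genes at r = 0.68, and the SD of their disagreement was 0.46. Of 174 such genes whose brightest probe was past 2-fold, 161 (92.5%) had another probe of the same sign and 102 (58.6%) another probe also past 2-fold. Agreement was closer for 707 genes whose other probe had a level of 8 or more, where the SD of the disagreement was 0.29. In that set 30 of 35 genes past 2-fold by the brightest probe were also past 2-fold by the other. Among genes detected on both arrays the brightest differed least often, with 3.03% of genes at a mean level of 10 or above past 2-fold either way. Below that level the share lay between 9.06% (levels of 9 to 10) and 12.4% (levels of 6 to 7). It was 9.96% for the dimmest genes, under a level of 6.

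**Figure D2:**
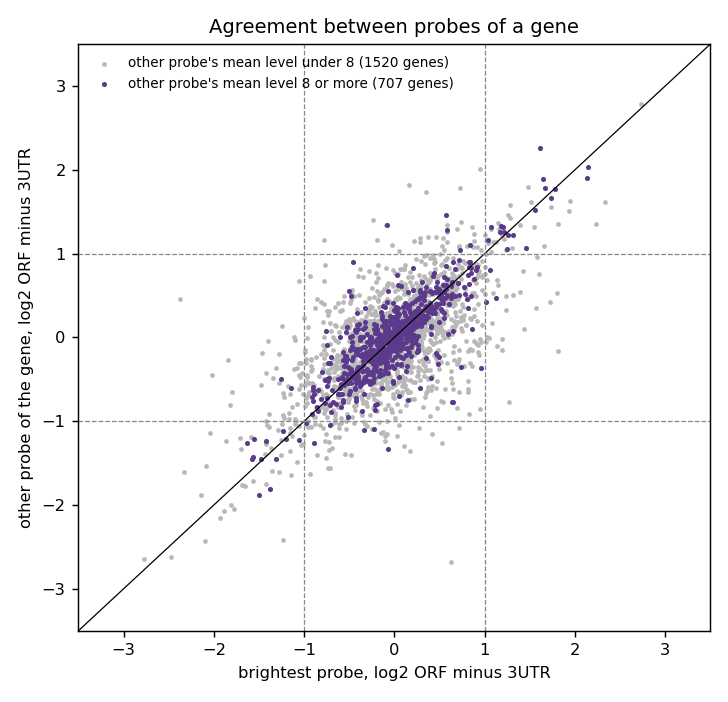
Log2 difference (ORF minus 3UTR) of the brightest probe of a gene against that of another of its probes, for 2227 genes, with dashed lines at 2-fold. The 707 genes with a brighter second probe (purple) lie closer to the diagonal than the 1520 others (grey).

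The gene with the largest excess under the ORF siRNA was HDGF, a heparin-binding growth factor found largely in the nucleus. Its probe read 1012 with the ORF and 135 with the 3UTR siRNA, a 14.5-fold difference after background correction, which widens the ratio of dim readings. The HDGF level on the control array, 10.18 on the log2 scale, lay near that of the ORF array (10.01) and far from that of the 3UTR array (6.16). The same held for COPZ1, the ζ subunit of the COPI vesicle coat, which read 1347 and 202 and was 8.98-fold higher with the ORF siRNA. TK1, the cytosolic thymidine kinase that salvages thymidine for DNA synthesis, read 715 and 164 (6.55-fold). VAMP3, a SNARE protein of recycling endosomes, read 1662 and 299 (6.32-fold), with a control level of 10.49 close to the 10.76 of the ORF array. Each of these 4 genes rests on 1 probe.

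Another set stood apart from the control mainly on the ORF array. TNFRSF6B, the soluble decoy receptor that captures Fas ligand, read 3659 with the ORF and 474 with the 3UTR siRNA, 8.20-fold apart, with a control level of 9.82 between 11.93 and 8.89. MUC1, the transmembrane mucin of ductal epithelium, read 1030 and 204 (6.62-fold). All 3 detected MUC1 probes were past 2-fold, the smallest at a log2 difference of at least 1.28. PHLDA2, an imprinted gene known for limiting placental growth, read 452 and 141 (5.38-fold). AHNAK2, a giant scaffold protein, read 2377 and 754 (3.18-fold), and its other detected probe gave 1.79 on the log2 scale. RN7SK, the nuclear RNA that keeps P-TEFb, a kinase of transcript elongation, inactive, read 2474 and 816 (3.06-fold), with 2.26 on the log2 scale by its other probe.

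Several of the genes higher with the ORF siRNA were past 2-fold by more than 1 probe. ADARB1, an enzyme that edits adenosine to inosine in double-stranded RNA, read 1304 with the ORF and 294 with the 3UTR siRNA, 5.03-fold apart. TSEN34, a subunit of the endonuclease that removes introns from transfer RNA, read 2922 and 680, and its 2 probes gave 2.14 and 2.04. RYK, a receptor for Wnt ligands, read 1754 and 425, and all 3 of its probes lay between 1.90 and 2.13. ALDH7A1, an aldehyde dehydrogenase of lysine breakdown, read 3054 and 961 with probes at 1.64 and 1.89. For TSEN34, RYK and ALDH7A1 the ORF array stood close to the control array and the 3UTR array below both. By 1 detected probe each, POP5, a protein of ribonucleases P and MRP, read 681 and 183 (5.11-fold), and RNASEH2C, a subunit of the nuclease that clears RNA from DNA, was 4.93-fold higher.

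MLLT11, a gene first found as a fusion partner of KMT2A in leukaemia, had the largest difference of all. It read 121 with the ORF and 992 with the 3UTR siRNA, a 20.3-fold lower level with the ORF siRNA, by 1 probe. The control level of MLLT11 was 9.19, between 5.73 with the ORF and 10.07 with the 3UTR siRNA. BCHE, butyrylcholinesterase, which hydrolyses acetylcholine and other choline esters, read 103 and 279 (8.78-fold lower with the ORF siRNA). Its other probe was undetected with the ORF siRNA and gave a log2 difference of at least 1.82 in the same direction. MOSPD2, a tether between endoplasmic reticulum and other membranes, was undetected with the ORF siRNA at 102 and read 299 with the 3UTR siRNA. Against that undetected reading the fold was 10.1. TMEM30A, the partner subunit of lipid flippases, was likewise undetected, at 101, and read 233 with the 3UTR siRNA, 7.30-fold above that undetected reading.

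UHMK1, a kinase that acts on splicing factors, combined brightness with agreement between probes. It read 415 with the ORF and 2441 with the 3UTR siRNA, and its probes gave −2.78 and −2.65, with the control level of 11.23 next to the 11.39 of the 3UTR array. CCSER2 read 131 and 372, with probes at −2.47 and −2.62. DENND5A, an exchange factor for Rab GTPases, read 282 and 962, with −2.10 and −2.43. CHST7, a sulfotransferase acting on chondroitin, read 470 and 2208 (5.38-fold), where the control level of 10.00 lay between 8.81 and 11.24. GPX8, a peroxidase of the endoplasmic reticulum, read 296 and 1016, with −2.09 and −1.53. SLC25A15, the mitochondrial ornithine carrier, was 5.17-fold lower with the ORF siRNA by its brightest probe, but another detected probe gave 0.45, so its probes disagreed.

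**Figure D3:**
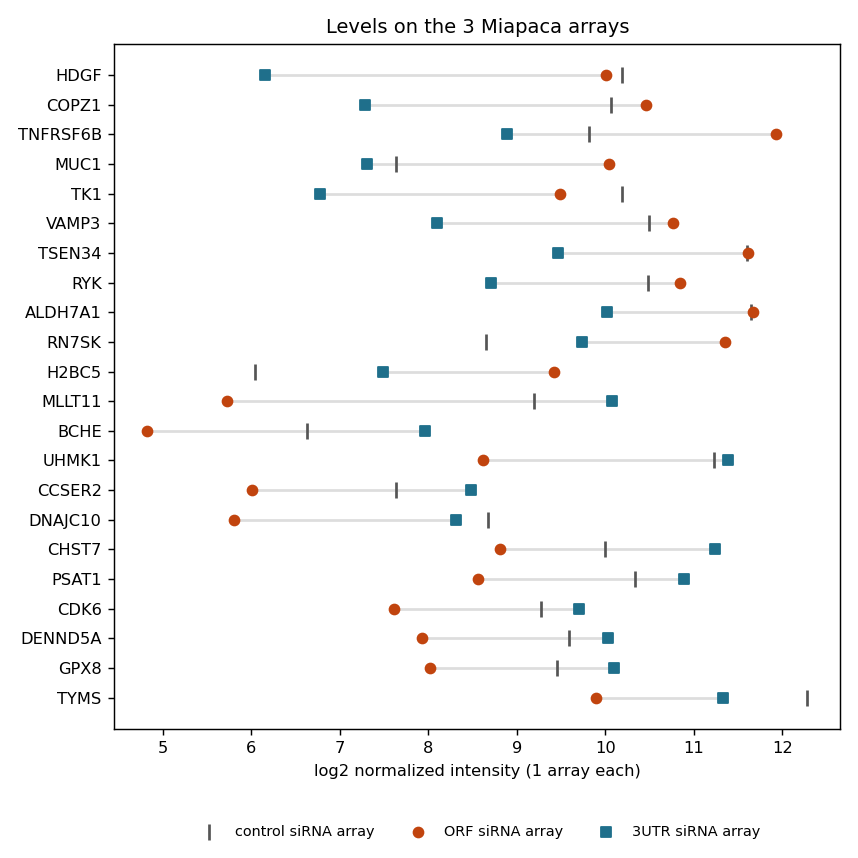
Normalized log2 intensity on the Miapaca control array (bar), ORF siRNA array (orange circle) and 3UTR siRNA array (blue square) for 22 genes. HDGF, COPZ1, TK1, VAMP3, TSEN34, RYK and ALDH7A1 have the 3UTR array apart from the other arrays, and UHMK1, DNAJC10 and PSAT1 have the ORF array apart.

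Over all 554 genes at least 2-fold higher with the ORF siRNA, the control level was nearer the ORF array for 265 and nearer the 3UTR array for 289. Of the 526 genes at least 2-fold higher with the 3UTR siRNA it was nearer the 3UTR array for 358 (68.1%) and nearer the ORF array for 168. Among all genes compared 51.1% were nearer the 3UTR array. The control level fell between the siRNA arrays for 370 and 348 of the genes in these sets, beside 3452 of all 10609 genes compared. Genes chosen for a wide gap between these arrays leave more room for the control level to fall between them. These counts use the same arrays as the comparison and describe it only, and the effect of the brighter control array on them was not tested.

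Squamous genes and most keratins were higher with the ORF siRNA. All 9 measured genes of the cornified envelope and squamous list stood higher with the ORF siRNA, 4 of them past 2-fold (beside 5.22% of all genes), with a median of 0.95 beside 0.02 for all genes. SFN, the 14-3-3σ protein of stratified epithelia, read 175 with the ORF siRNA and was undetected at 91.4 with the 3UTR siRNA, at least 4.99-fold apart. Detected on 1 array only, SFN could not have been counted in the other direction. SERPINB1, an inhibitor of neutrophil proteases, read 1517 and 536 (2.89-fold). KLK6 and KLK7, secreted serine proteases of the kallikrein family, were 2.06-fold and 2.16-fold higher, while another KLK6 probe, detected with the 3UTR siRNA only, pointed the other way. CNFN, TRIM29, KLK5, CSTB and SPRR1A lay between 0.05 and 0.95. For KLK6, with a control level of 10.19, the ORF array (11.43) stood farther from the control than the 3UTR array (10.39).

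Among 7 keratins, the intermediate filament proteins of epithelia, 5 were higher with the ORF siRNA, 2 of them past 2-fold (beside 5.22% of all genes). KRT19, a keratin of simple duct epithelium, read 1698 and 528 (3.32-fold), and its level was 9.07 both with the 3UTR siRNA and on the control array. KRT15, a keratin of basal epithelial cells, read 197 and 109 (3.96-fold). KRT8, the brightest keratin here, read 6940 and 4528, a log2 difference of 0.54, and KRT18 stood at 0.74. KRT10 and KRT20 were at −0.52 and −0.08. KRT80 gave 0.71 by its brightest probe and −0.65 by another.

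Genes of epithelial junctions were mixed, with 13 of 22 higher with the ORF siRNA and a median of 0.11. Of the 22, 7 were detected on 1 array only, which fixed their direction. PKP3, a desmosome plaque protein, was 2.83-fold higher with the ORF siRNA, and the tight junction gene CLDN3 and the epithelial transcription factor ELF3 were undetected with the 3UTR siRNA and at least 2.42-fold and 2.55-fold higher. CLDN12, another claudin, went the other way, reading 152 with the ORF and 488 with the 3UTR siRNA. CGN, a tight junction plaque protein, was at least 2.13-fold higher with the 3UTR siRNA. None of the 17 mesenchymal genes was past 2-fold (beside 10.2% of all genes), and VIM differed by 0.14. In BXPC3, 3 of 7 squamous genes and 2 of 6 keratins were higher with the ORF siRNA than with the control, with medians of −0.03 and −0.08.

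AP-1 and immediate early genes, which cells switch on within minutes of a growth signal or stress, were higher with the ORF siRNA for 27 of 33 members, 6 of them past 2-fold (18.2%, beside 5.22% of all genes), and none was past 2-fold the other way. Their median was 0.60. KLF2, a zinc finger factor responsive to flow and statins in endothelium, read 4278 with the ORF and 1492 with the 3UTR siRNA (2.77-fold). EGR1, an early growth response factor, read 1211 and 483 (2.59-fold), and JUNB, an AP-1 subunit, read 143 and 106 (2.43-fold). ID1, an inhibitor of basic helix-loop-helix factors induced by BMP signals, read 1329 and 497 (2.77-fold), and its other probe was undetected with the 3UTR siRNA. IER5L was 3.51-fold higher. In BXPC3 15 of 32 members were higher with the ORF siRNA, with a median of −0.10, and KLF2 was past 2-fold there as well.

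Replication-dependent histone genes supply the bulk of histones in S phase, and their messages end in a stem loop in place of a poly(A) tail. Of 46 measured members 41 were higher with the ORF siRNA, 5 of them past 2-fold (10.9%, beside 5.22% of all genes), and none was past 2-fold the other way. Of the 46, 8 were detected on 1 array only, which fixed their direction. The median was 0.61. H2BC5, an H2B gene, read 685 with the ORF and 221 with the 3UTR siRNA (3.81-fold), with a control level of 6.04 below both arrays, at 9.42 and 7.49, and its other detected probe was past 2-fold as well. H2BC21 read 222 and 119 (3.38-fold). H2AC18 and H2AC20 were 2.21-fold and 2.26-fold higher, and H3C1 was undetected with the 3UTR siRNA. Histone genes are near-identical copies and their probes can share signal, so single members are uncertain.

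Histone promoters are known for an octamer, ATTTGCAT, that binds OCT1 at H2B genes. The letters were searched on both strands in RefSeq promoters of GRCh38.p14, 300 bases a gene from 250 before to 50 after the start, where the octamer occurs in 1.80% of 27305 promoters. Among 42 measured members with a promoter 17 held it, and their median of 0.54 lay beside 0.64 for the others. The stretches below show it in capitals in members of each kind. The H2BC21 and H2AC20 lines are the opposite strands of a single stretch between the divergent genes.
H2BC21, chr1:149886710-149886739, minus strand: tcggagccctaATTTGCATaaggtggttat
H2AC20, chr1:149886710-149886739, plus strand: ataaccaccttATGCAAATtagggctccga
H2BC12, chr6:27146886-27146915, minus strand: ctcttcaccttATTTGCATgagaggtccta
H2AC4, chr6:26033718-26033747, minus strand: ggaaggattacATGCAAATgaaggatgcag

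The genes with these octamers stood at 1.76 for H2BC21, 1.18 for H2AC20, 0.92 for H2BC12 and 0.87 for H2AC4. In BXPC3, whose arrays are not part of the comparison, 22 of 28 histone genes stood higher under the ORF siRNA than under the control, with a median of 0.44. H2BC5 read 357 on the BXPC3 control array and 888 with the ORF siRNA, and H2BC21 read 164 and 245. Most histone genes thus stood higher on the ORF array in each line, against the 3UTR array in Miapaca and against the control array in BXPC3.

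Small nucleolar and nuclear RNAs, which guide the modification of ribosomal RNA or act in splicing, also lack a classical poly(A) tail. Of 185 measured members 136 were higher with the ORF siRNA, and 21 were past 2-fold (11.4%, beside 5.22% of all genes), with none past 2-fold the other way and a median of 0.40. Of the 185, 31 were detected on 1 array only, which fixed their direction. RMRP, the RNA of ribonuclease MRP, read 155 with the ORF siRNA and was undetected at 100 with the 3UTR siRNA, 3.63-fold apart by that undetected reading. SNORA28 read 829 and 338 (2.59-fold). RNU5A-1, a U5 spliceosomal RNA, was undetected with the 3UTR siRNA and at least 4.21-fold higher with the ORF siRNA. In BXPC3 77 of 153 members were higher with the ORF siRNA, with a median of 0.01. The modified Eberwine labelling used here primes on poly(A) tails, and its part in the signal of histone and small RNA probes was not tested.

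In the H2B ubiquitination and transcription elongation list, 3 of 34 members were past 2-fold higher with the ORF siRNA (beside 5.22% of all genes). With the 3UTR siRNA 2 were past 2-fold higher (beside 4.96%), HEXIM2 and MLLT11. MLLT11 was described above only as a fusion partner of KMT2A. A part for MLLT11 in elongation was not tested, so its difference is not read as that of an elongation gene. RNF20, the ligase that ubiquitinates H2B during transcription, read 377 with the ORF and 139 with the 3UTR siRNA (4.48-fold). HEXIM2, which inhibits P-TEFb together with RN7SK, was 2.53-fold higher with the 3UTR siRNA, opposite to RN7SK itself. DOT1L, the H3K79 methyltransferase, was undetected with the 3UTR siRNA and at least 2.23-fold higher with the ORF siRNA. Over the whole list 21 members were higher with the ORF siRNA and the median was 0.04, with a range from −0.02 to 0.10 over the processing alternatives.

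Metallothioneins bind zinc and copper, and their genes are switched on by MTF1 when free zinc rises. In the list of metallothioneins and zinc transporters 6 of 21 members were past 2-fold higher with the ORF siRNA (beside 5.22% of all genes) and 1 with the 3UTR siRNA (beside 4.96%), and the median was 0.40. MT2A, the most abundant metallothionein, read 10413 with the ORF and 4658 with the 3UTR siRNA (2.09-fold), beside 14466 on the control array. MT1G read 447 and 213 (2.50-fold), and MT1M read 201 and 107 (4.50-fold). The zinc importers SLC39A14 and SLC39A4 were 2.35-fold and 2.22-fold higher, and SLC39A11 at least 3.99-fold. SLC30A7, which loads zinc into the Golgi, was 2.62-fold lower with the ORF siRNA at 223 against 460. Metallothioneins are close copies whose probes can share signal. MT2A in BXPC3 read 16980 on the control and 16147 on the ORF array.

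MTF1 binds metal response elements, whose core was searched as TGCGCNC or TGCACNC. These letters occur in 29.3% of all promoters, and in 7 of 16 measured members of the list with a promoter. The members with the core had a median of 0.72 and those without it −0.07. A stretch with the core in capitals is shown for MT2A and for MT1X, which stood at 0.76.
MT2A, chr16:56608412-56608441, plus strand: gcccGTGTGCAgagccgggTGCGCCCggcc
MT1X, chr16:56682308-56682337, plus strand: caggccccgcggTGCGCCCggcgctgggct

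Most genes of cholesterol and fatty acid synthesis stood lower with the ORF siRNA. These enzymes build sterols and lipids from acetyl-CoA and are driven together by SREBP factors. Of 35 measured members 30 were higher with the 3UTR siRNA, 3 of them past 2-fold (8.57%, beside 4.96% of all genes), and none was past 2-fold the other way. The median was −0.49. ACLY, which makes cytosolic acetyl-CoA from citrate, read 1604 with the ORF and 3814 with the 3UTR siRNA (2.47-fold), and its other probe gave −1.45. The control level of ACLY, 11.50, fell between 10.71 and 12.01. MSMO1, a sterol demethylase, read 535 and 1070 (2.23-fold), but its 3 detected probes ranged from −1.36 to −0.04. FDPS, the farnesyl diphosphate synthase inhibited by bisphosphonates, read 417 and 792 (2.12-fold). The list median against the control array was −0.36 with the ORF and 0.28 with the 3UTR siRNA, and in BXPC3 it was −0.05.

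Interferon-stimulated genes form an antiviral program that double-stranded RNA can set off. Of 31 measured members 24 were higher with the 3UTR siRNA, 5 of them past 2-fold (beside 4.96% of all genes), and 7 were higher with the ORF siRNA, 1 of them past 2-fold (beside 5.22%), with a median of −0.32. Of the 31, 5 were detected on 1 array only, which fixed their direction. GBP2, a GTPase induced by interferon γ, read 102 with the ORF and 157 with the 3UTR siRNA (3.57-fold). UBE2L6, the conjugating enzyme for ISG15, read 277 and 539 (2.33-fold), with its other detected probe at −0.96. HERC6, DHX58 and USP18 were undetected with the ORF siRNA and at least 2.78-fold, 2.20-fold and 2.00-fold higher with the 3UTR siRNA. IFITM1, a membrane protein that blocks virus entry, was opposite, reading 1005 and 455 (2.27-fold higher with the ORF siRNA). The list median against the control was 0.16 with the ORF and 0.44 with the 3UTR siRNA, so by the median the 3UTR array stood farther from it. By the log2 of the mean signal over the list the ORF array stood farther, at 9.25 against 8.82 on the control and 8.95 with the 3UTR siRNA.

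Interferon factors bind a response element whose core was searched as TTTC, 2 bases of any kind and TTTC. It occurs in 3.65% of all promoters and in 13 of 25 measured members with a promoter. Members with the core had a median of −0.42 and those without it −0.22. The stretches below, with every core in capitals, belong to IFIT1 at −0.54, ISG15 at −0.76 and PARP12 at −0.90.
IFIT1, chr10:89392503-89392532, plus strand: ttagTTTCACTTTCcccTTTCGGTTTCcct
ISG15, chr1:1013377-1013406, plus strand: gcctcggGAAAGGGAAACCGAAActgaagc
PARP12, chr7:140062942-140062971, minus strand: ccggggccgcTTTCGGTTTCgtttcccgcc

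Of 18 genes of MHC class I antigen presentation, 13 were higher with the 3UTR siRNA and the median was −0.15. Of the 18, 3 were detected on 1 array only, which fixed their direction. PSMB8, an immunoproteasome subunit induced by interferon γ, was undetected with the ORF siRNA and at least 4.69-fold higher with the 3UTR siRNA at 163, and its other detected probes had the same direction where a bound could be set. TAP1, the peptide transporter, lay just within 2-fold at −0.99. HLA-C stood at −0.80, HLA-B at −0.27 and B2M, the light chain, at 0.35. CXCL1 and CXCL5, chemokines that draw neutrophils through CXCR2, went opposite ways: CXCL1 read 1366 with the ORF and 408 with the 3UTR siRNA, and CXCL5 read 183 and 420. The other CXCL5 probe gave −1.76, against −1.68 for the brightest.

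The endoplasmic reticulum and its vesicle traffic held large single differences. Chaperones, genes of the unfolded protein response and genes of protein disposal there were higher with the 3UTR siRNA for 26 of 38 members, with a median of −0.11, 4 past 2-fold in that direction (beside 4.96% of all genes) and 1 in the other (beside 5.22%). HSPA5, the chief chaperone and sensor of folding stress, read 207 with the ORF and 490 with the 3UTR siRNA (3.14-fold). Its cochaperone DNAJB9 read 182 and 410 (3.16-fold), and FICD, which modifies HSPA5 by AMP transfer, read 107 and 144 (2.47-fold). DNAJC10, a disulfide reductase, read 124 and 335 (5.69-fold), although its other probe gave a smaller bound of at least 0.98 on the log2 scale. EDEM1, which directs misfolded glycoproteins to disposal, was opposite, reading 219 and 108 (4.80-fold higher with the ORF siRNA).

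The endoplasmic reticulum stress element, searched as CCAAT and CCACG with 9 bases of any kind between, occurs in 0.0806% of all promoters. It was found in 7 of 37 measured members with a promoter. Their median was −0.16, beside −0.10 for those without it. The element is in capitals in the following stretches from HSPA5, FICD and HSP90B1, a chaperone at −0.40.
HSPA5, chr9:125241386-125241415, minus strand: ccttcaCCAATCGGCGGCCTCCACGacggg
FICD, chr12:108515117-108515146, plus strand: caacaaCCAATGGGAGTGGCCCACGgcgcg
HSP90B1, chr12:103930210-103930239, plus strand: ccctgaCCAATCGGAAGGAGCCACGcttcg

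COPII coats carry cargo out of the endoplasmic reticulum and COPI coats carry it back. In the list of COPI, COPII and Golgi transport genes 30 of 46 were higher with the 3UTR siRNA, 6 past 2-fold (beside 4.96% of all genes), and the median was −0.24. The COPII subunits SEC24D and SEC23A read 117 and 167 with the ORF siRNA and 193 and 268 with the 3UTR siRNA, 3.12-fold and 2.15-fold apart. SAR1A, the GTPase that starts the COPII coat, was 2.09-fold lower with the ORF siRNA, and MCFD2, part of a cargo receptor for clotting factors, 2.49-fold. COPZ1, described above, and GOLGB1, a Golgi tether, were the 2 members past 2-fold higher with the ORF siRNA. Among 32 glycosylation genes 3 were past 2-fold (beside 10.2% of all genes), all higher with the 3UTR siRNA. C1GALT1C1, the chaperone needed to extend O-glycans, read 194 and 568 (4.10-fold), with another probe at −1.14. FUT8, which adds core fucose to N-glycans, was 2.89-fold lower with the ORF siRNA.

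The amino acid response controlled by ATF4 had a median of −0.15 over 41 members, with 3 past 2-fold higher with the 3UTR siRNA and 1 with the ORF siRNA, shares near the 4.96% and 5.22% of all genes. PSAT1, an aminotransferase of serine synthesis, read 403 with the ORF and 1740 with the 3UTR siRNA (5.00-fold), with a control level of 10.34 between 8.56 and 10.89. WARS1, tryptophanyl-tRNA synthetase, read 470 and 1180 (2.83-fold), with another probe at −1.88. SLC6A9, the glycine transporter, was 2.22-fold higher with the ORF siRNA. Proteasome subunits were higher with the 3UTR siRNA for 22 of 27 members, with none past 2-fold (beside 10.2% of all genes) and a median of −0.15. Splicing factors and CLK kinases had 26 of 36 in the same direction and a median of −0.15, with CLK3 2.19-fold higher.

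**Figure D4:**
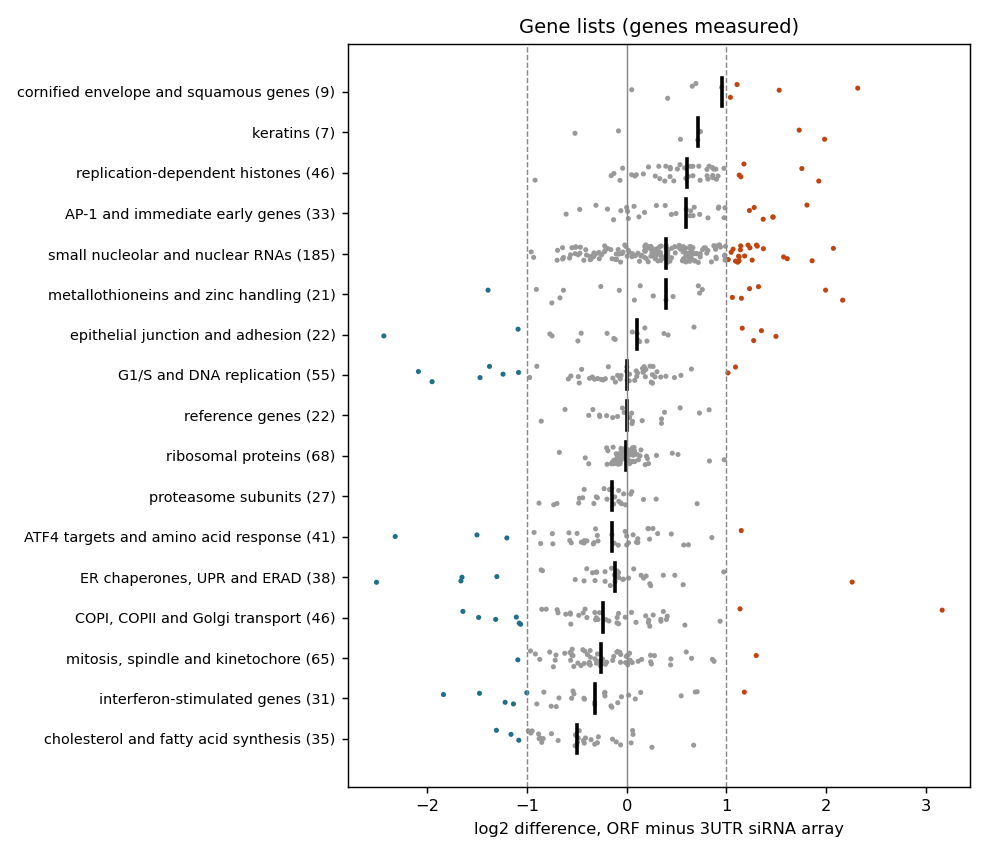
Log2 difference (ORF minus 3UTR) of each measured gene in 17 lists, with a bar at the median of each list, dashed lines at 2-fold and the number of genes in brackets. Squamous, keratin, histone and immediate early genes have medians between 0.60 and 0.95, ribosomal proteins and reference genes lie around 0, and cholesterol synthesis genes lie lowest at −0.49.

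Cell cycle genes differed between the siRNAs in particular members. Genes of G1/S and DNA replication divided evenly, 28 higher with the ORF and 27 with the 3UTR siRNA, with a median of 0.00 and 6 past 2-fold lower with the ORF siRNA (beside 4.96% of all genes) against 2 higher (beside 5.22%). CDK6, the kinase that acts with D cyclins on RB1, read 241 with the ORF and 789 with the 3UTR siRNA (4.25-fold). CDK2, the partner of cyclins E and A, read 224 and 660 (3.87-fold), with another probe at a bound of at least 1.14 on the log2 scale in the same direction. POLA2, a subunit of DNA polymerase α, was 2.77-fold lower with the ORF siRNA, and CCND3, cyclin D3, read 1305 and 2903 (2.36-fold). E2F2, a factor that drives S phase genes, and POLD1, the catalytic subunit of polymerase δ, were 2.13-fold and 2.02-fold higher with the ORF siRNA.

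Enzymes that make and salvage thymidylate went opposite ways. TYMS, thymidylate synthase and the target of fluorouracil, read 934 with the ORF and 2348 with the 3UTR siRNA (2.70-fold lower with the ORF siRNA), with a control level of 12.28 above both. SHMT1, which supplies folate carbon to TYMS, stood 3.53-fold lower by the brightest probe, and its other probes gave −0.81 and 0.01. TK1, given above, was 6.55-fold higher with the ORF siRNA, with a control level of 10.18 above both arrays (9.48 and 6.77). SLC29A2, a nucleoside transporter, read 271 and 126 (3.81-fold higher with the ORF siRNA). Over all 30 genes of nucleotide handling the median was −0.20. Mitosis and spindle genes were higher with the 3UTR siRNA for 46 of 65 members, with a median of −0.26. Only CENPM (2.13-fold lower with the ORF siRNA) and CCNB1 (2.46-fold higher) were past 2-fold, beside 10.2% of all genes. The list medians against the control were −0.81 on the ORF array and −0.55 on the 3UTR array.

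LYNX1 is known for binding neuronal nicotinic receptors, and no measured nicotinic subunit was past 2-fold, beside 10.2% of all genes. So few subunits were measured that this count does not set them apart from other genes. CHRNA5, the α5 nicotinic subunit, read 258 with the ORF and 249 with the 3UTR siRNA, a log2 difference of 0.02, and another probe gave −0.66. CHRNB1, the β1 subunit of the muscle receptor, read 119 and 147, a difference of −0.79. CHRNA10 read 109 and 105, near background, and stood at 0.22. CHRNE, a muscle receptor subunit, was undetected with the 3UTR siRNA and stood at 0.29 against that undetected reading. BCHE, described above, was the only gene of 8 in the list of nicotinic receptors and acetylcholine handling past 2-fold. That share, 12.5%, was near the 10.2% of all genes. The list median was −0.50, and 2 of the 8 genes were detected on 1 array only, which fixed their direction. Of the Ly6 and uPAR family 5 genes were measured. PLAUR, the urokinase receptor, read 776 and 332 (2.48-fold higher with the ORF siRNA), and all 3 of its probes were past 2-fold. CD59, which blocks the complement attack complex, stood at 0.53 and LY6E at −0.06. PINLYP and LYPD1 were undetected with the 3UTR siRNA and at least 0.52 and 0.21 higher with the ORF siRNA.

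Basic cell machinery was level between the arrays by list medians, though not in every member. None of 68 ribosomal protein genes and none of 22 reference genes was past 2-fold, beside 10.2% of all genes. These lists are bright on average, and only 3.03% of genes at a level of 10 or above were past 2-fold. The list medians were −0.00 and 0.00, each of which took the other sign under some alternatives. Single members ranged from −0.67 to 0.98 among ribosomal proteins and from −0.86 to 0.83 among reference genes. HPRT1 and PGK1, the reference genes at these ends, had other probes at −0.83 and 0.84. Of 54 respiratory chain genes, also bright on average, only CYCS, cytochrome c, was past 2-fold, reading 115 with the ORF and 227 with the 3UTR siRNA. The mitochondrial carrier SLC25A5, which exchanges ADP for ATP, was an exception among very bright genes, reading 14466 and 4030 (3.32-fold). Heat shock genes had a median of −0.02, which ranged from −0.02 to 0.03 over the processing alternatives, with HSPA1B, a near copy of HSPA1A, 2.69-fold higher with the ORF siRNA and HSPA13 2.10-fold lower. In the RNA interference machinery, through which siRNAs act, XPO5, the exporter of microRNA precursors, read 236 and 569 (3.09-fold lower with the ORF siRNA) and TNRC6B, a silencing cofactor, was 2.11-fold higher. The other 17 of 19 members lay within 2-fold, and the share past it, 10.5%, was near the 10.2% of all genes.

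The BXPC3 arrays share no array with the comparison and carry the ORF siRNA, so the same genes were read there as ORF siRNA against control. Past 2-fold in BXPC3 were 0.637% of 11150 genes higher and 0.457% lower. Of the genes at least 2-fold lower with the ORF siRNA than with the 3UTR siRNA in Miapaca, 449 were measured in BXPC3 and 337 (75.1%) were lower with the ORF siRNA there, with a median of −0.24. Among all 9367 genes measured in both, 50.3% were lower and the median was −0.00. Of the genes at least 2-fold higher with the ORF siRNA in Miapaca, 267 of 461 (57.9%) were higher in BXPC3, with a median of 0.07. No array of the 3UTR siRNA in BXPC3 was analysed here.

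**Figure D5:**
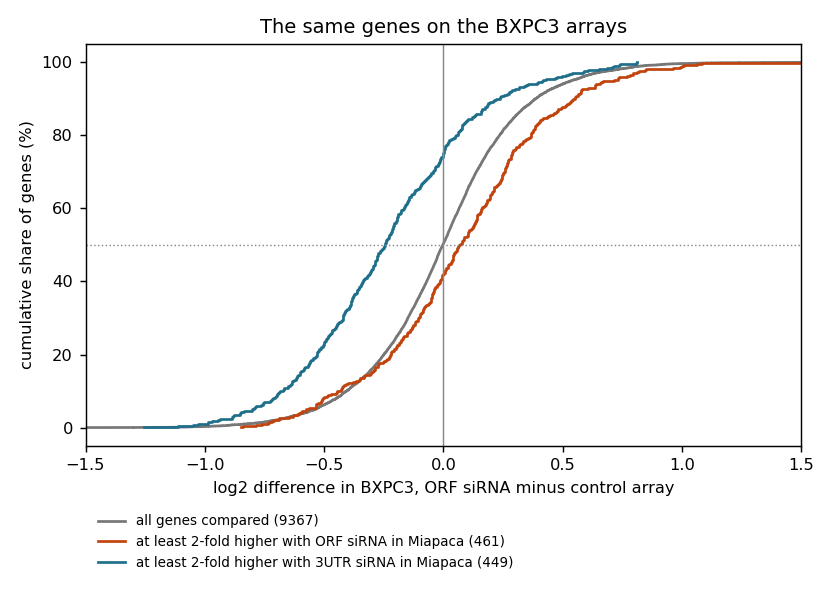
Cumulative share of genes by log2 difference in BXPC3 (ORF siRNA minus control) for 9367 genes compared (grey), 461 at least 2-fold higher with the ORF siRNA in Miapaca (orange) and 449 at least 2-fold higher with the 3UTR siRNA (blue). The blue curve lies to the left, with a median of −0.24, and the orange curve slightly to the right, with a median of 0.07.

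Among all 9367 genes measured in both lines, 34 were past 2-fold higher with the ORF siRNA in BXPC3 and 26 lower. Past 2-fold in the same direction in both lines were 6 of the 461 genes higher with the ORF siRNA in Miapaca and 5 of the 449 lower. The higher ones were the histones H2BC5 and H2BC21, KLF2, SLC6A9, ATOSB and PRRT3. In Miapaca ATOSB read 370 on the ORF array against 197 on the 3UTR array, and in BXPC3 it read 194 on the ORF array against 135 on the control array. The lower ones were GABPA, CNTNAP1, PALLD, NKX3-2 and TRIM43. GABPA, an ETS factor of nuclear genes for mitochondria, read 106 and 167 in Miapaca, 3.55-fold apart, and 112 and 151 in BXPC3. PALLD, an actin crosslinker, was undetected with the ORF siRNA in Miapaca and read 320 with the ORF siRNA and 559 with the control in BXPC3. MLLT11 was lower with the ORF siRNA in BXPC3 too, at 247 against 383, a log2 difference of −0.85, short of 2-fold. Of the 6 genes with the largest excess under the ORF siRNA in Miapaca, HDGF stood at 0.20 in BXPC3, VAMP3 at 0.14, COPZ1 at −0.19, TK1 at −0.35 and MUC1 at −0.45, and TNFRSF6B was not detected there.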

How the data were processed

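RNA of 5 cultures was measured on 1 array each. The authors deposited mean bead intensities, not normalized per the file headers, and a detection p-value for every probe on every array. Sources used here do not state the scanner software, the detection method or any background step before deposit. The authors' series matrix gives linear intensities under an unstated normalization, with array medians of 100.0 to 102 and no sign of centring. Of 48107 probes, 1 had a missing value and was dropped.

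limma 3.58.1 in R 4.3.3 was used to estimate background from the detection p-values, correct it by normexp (offset 16) and quantile-normalize the 5 arrays to log2 values (neqc). Tables and plots were made in Python 3.11.15 (numpy 2.4.6, pandas 2.3.3, matplotlib 3.10.9). The platform annotation gave 1 symbol for 30113 probes, several for 8 and none for 17985. RefSeq accessions (29081 probes) and Entrez identifiers (1011 probes) were used to update symbols, of which 27 changed. Each gene was represented by the probe of highest mean level across arrays. Where a gene was detected on 1 array only, the dim side was raised to that array's lowest detected signal if it lay below it. The fold so given is an approximate bound, since that signal is not each probe's detection limit. Set aside were 94 genes whose difference was then not in the direction of the array that detected them. The steps were tested on simulated data in which only probes well above background were changed. Folds of dim genes and of genes detected on 1 array only were therefore not covered.

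The comparison, its genes and 48 gene lists were chosen with earlier results of these data known. Named genes are the 15 highest each way, up to 15 each way with every detected probe past 2-fold, up to 6 a list each way, up to 10 each way also past 2-fold in BXPC3, members of lists of under 20 genes and detected nicotinic receptor genes. Genes named beside a promoter sequence, a cell type marker or as a probe example outside these were chosen after their values were seen. Promoters came from RefSeq (GRCh38.p14).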

Additional observations from a re-analysis of the deposited data

How the results depend on the processing

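With 1 array a group, no array could be left out and no difference has an error. No paired analysis was possible because each group holds 1 array and no replicate numbers are shared. The counts of genes at least 2-fold higher with the ORF or the 3UTR siRNA, 554 and 526 respectively, moved to 157 and 150 without background correction, to 259 and 263 with an offset of 50, and to 174 and 155 with the authors' series matrix values, and every gene called in these settings was also called in the main setting. Normalizing only the 2 arrays compared gave 489 and 486, and median scaling gave 561 and 425. Median scaling shifted the median of all genes from 0.02 to 0.07 and raised the share of differences that were higher with the ORF siRNA from 51.3% to 56.9%. Of 196 named genes past 2-fold, none reversed under any of the 10 alternatives. The 196 were past 2-fold on these same arrays, and some alternatives change only the filter or the bound. A reversal was therefore unlikely from the start, and its absence is no independent support. Of the 196, 94 fell under 2-fold without background correction, 90 with the series matrix and 62 with the offset of 50. With 2 arrays only 19 fell under it, with median scaling 16 and with the mean over probes 15. With detection required on both arrays, only 164 of the 196 had a value. Of 48 list medians, 37 kept their sign under every alternative and 11 changed it under at least 1, all of them at most 0.14 from 0 in the main setting. The widest of these were the fibroblast, endothelial and blood markers, from −0.14 to 0.24, and the others were apoptosis, heat shock, NRF2, glycolysis, H2B ubiquitination, long non-coding RNA, mitochondrial carrier, respiratory chain, reference and ribosomal protein genes. The histone median ranged from 0.25 to 0.63, the immediate early median from 0.32 to 0.60, the cholesterol synthesis median from −0.50 to −0.33 and the interferon median from −0.35 to −0.18. Dim genes limit the precision, since a reading near the background of 92.4 can give a large fold from a small difference in intensity.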

Other observations

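Gene length and transcript class were read beside the comparison, as values with no test. Protein-coding genes were divided into 5 classes of equal size by the length of the gene. The shortest class, up to 9.081 kb, held 1993 genes. Of these, 134 (6.72%) were at least 2-fold higher with the ORF and 67 (3.36%) with the 3UTR siRNA. In the longest class, from 82.823 kb and also of 1993 genes, the counts were 88 (4.42%) and 127 (6.37%). The shares of all genes were 5.22% and 4.96%. The medians of the classes lay between −0.03 and 0.06. Of 149 genes of the small nucleolar RNA class 113 were higher with the ORF siRNA, with a median of 0.41, and all 14 small nuclear RNAs were higher, with a median of 0.75. Long non-coding RNAs divided evenly, with 15 (7.28%) and 14 (6.80%) of 206 past 2-fold. So did protein-coding genes, with 510 (5.12%) and 505 (5.07%) of 9964, near the shares of all genes. H19, an imprinted long non-coding RNA of fetal tissue, was undetected with the 3UTR siRNA and read 162 with the ORF siRNA, at least 4.34-fold apart, while PVT1 was 2.74-fold lower with the ORF siRNA at 110 against 158.

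Requiring agreement of every detected probe left fewer genes. Among 2734 genes with 2 or more detected probes, 114 were at least 2-fold higher with the ORF siRNA by the brightest probe and 45 by all of them. In the other direction 138 were past 2-fold by the brightest probe and 61 by all.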
